A study of Mus musculus with 2 samples.

Results

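Immunoglobulin genes encode antibodies, and a small set of partner genes marks the cells that secrete them. Described here are 10 such genes of the 31053 listed in the count matrices, chosen by symbol: the light chain constant genes *Igkc*, *Iglc2* and *Iglc3*, the heavy chain constant genes *Ighm*, *Ighd* and *Igha*, the secretory genes *Jchain*, *Mzb1* and *Xbp1*, and the B cell precursor gene *Vpreb3*. Single-cell RNA sequencing was performed on cells digested from gingival mucosa and the surface of alveolar bone, in wild-type C57BL/6 mice aged 8 weeks. The control library held cells of 5 untreated mice, and the LIP library held cells of 5 mice with ligature-induced periodontitis, in which a ligature around a tooth causes gum inflammation and bone loss. The mice of a condition were pooled into 1 library, so that no replicate spread exists, no p-value is given, and condition and library cannot be told apart. Intervals are exact Poisson intervals for levels, exact Clopper-Pearson intervals for shares and exact conditional intervals for ratios, all at 95% and for counting error only.

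A B cell makes 1 kind of antibody, built from a heavy chain and a kappa or lambda light chain. Developing B cells rearrange their genes with the RAG enzymes and carry a surrogate light chain, mature unswitched cells carry IgM and IgD, and class switching replaces these with IgG, IgA or IgE. Plasma cells are the secreting end stage. They lose much of the B cell surface program, expand the endoplasmic reticulum under the transcription factor *Xbp1*, and use *Mzb1*, a chaperone cofactor, and *Jchain*, which joins IgM and IgA into polymers. Plasma cells are well known in inflamed gingiva.

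Cells with 200 to 7500 genes, at most 60000 unique molecular identifiers (UMIs, each a counted RNA molecule) and at most 10% mitochondrial UMIs were kept. These were 883 of 1169 control barcodes and 936 of 1212 LIP barcodes, with medians of 10845 and 5595 UMIs, and 2 barcodes occurred in both libraries. Classes were named from marker genes that hold no immunoglobulin gene, and clusters without such support are called by their leading genes. B-like cells numbered 147 in the control library (16.6%) and 20 in the LIP library (2.14%).

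Heavy chain constant genes lie together on chromosome 12, on the minus strand of GRCm38, with *Igha* at 113254830 to 113260236, *Ighd* at 113406604 to 113416324 and *Ighm* at 113418558 to 113422730. *Igkc* lies on chromosome 6 at 70726435 to 70726966, and the lambda genes lie on chromosome 16, *Iglc3* at 19065230 to 19065681 and *Iglc2* at 19198396 to 19200351. *Jchain* lies on chromosome 5 at 88519809 to 88527891, *Xbp1* on chromosome 11 at 5520659 to 5525893 and *Vpreb3* on chromosome 10 at 75943057 to 75949657. The last 150 coding bases of *Iglc2* (chr16:19198539-19198688, minus strand) and *Iglc3* (chr16:19065368-19065517, minus strand) are shown because the pair was 97.3% identical there. Whether reads of either gene were counted for the other was not tested. Capitals mark the 4 bases that differ.
Iglc2: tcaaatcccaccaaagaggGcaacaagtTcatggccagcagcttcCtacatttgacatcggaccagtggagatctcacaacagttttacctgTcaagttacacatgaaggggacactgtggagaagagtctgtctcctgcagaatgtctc
Iglc3: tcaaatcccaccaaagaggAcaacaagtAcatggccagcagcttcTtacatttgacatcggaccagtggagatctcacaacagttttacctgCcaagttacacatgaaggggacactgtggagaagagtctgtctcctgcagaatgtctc

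The IgG genes are no members, but the secreting cells turned on them. Their last 120 coding bases in the form with 4 coding exons are given for *Ighg1* (chr12:113328979-113329098), *Ighg2b* (chr12:113306392-113306511) and *Ighg2c* (chr12:113287392-113287511), all on the minus strand, with capitals where the 3 genes are not all alike. The pairs shared 67.5% to 75.0% of these bases, fewer than the lambda pair. The counts per gene do not separate secreted from membrane-bound forms.
Ighg1: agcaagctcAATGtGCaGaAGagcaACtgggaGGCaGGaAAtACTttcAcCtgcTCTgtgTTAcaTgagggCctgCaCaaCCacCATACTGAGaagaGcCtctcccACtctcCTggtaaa
Ighg2b: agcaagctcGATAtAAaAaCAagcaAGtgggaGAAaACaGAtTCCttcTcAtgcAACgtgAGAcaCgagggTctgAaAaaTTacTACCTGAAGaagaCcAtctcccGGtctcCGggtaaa
Ighg2c: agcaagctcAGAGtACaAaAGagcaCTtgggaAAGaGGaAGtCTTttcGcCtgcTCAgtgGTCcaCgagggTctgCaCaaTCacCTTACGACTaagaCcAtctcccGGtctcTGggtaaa

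Antibody-secreting candidates were sought as kept cells in which immunoglobulin genes, constant and variable, took at least 10% of the UMIs. There were 5 such cells in the control library (0.566% of kept cells, interval 0.184 to 1.32%) and 0 of 936 in the LIP library, which allows a share of up to 0.321% by the floor of 3 counts and 0.393% by the upper limit of the exact interval. The 5 cells stood far from all others. Their immunoglobulin share was 24.5% to 70.4%, while the next control cell reached 3.35% and the highest LIP cell 3.87%. They held 107705 of the 117326 immunoglobulin UMIs of the kept control cells (91.8%).

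**Figure D1:**
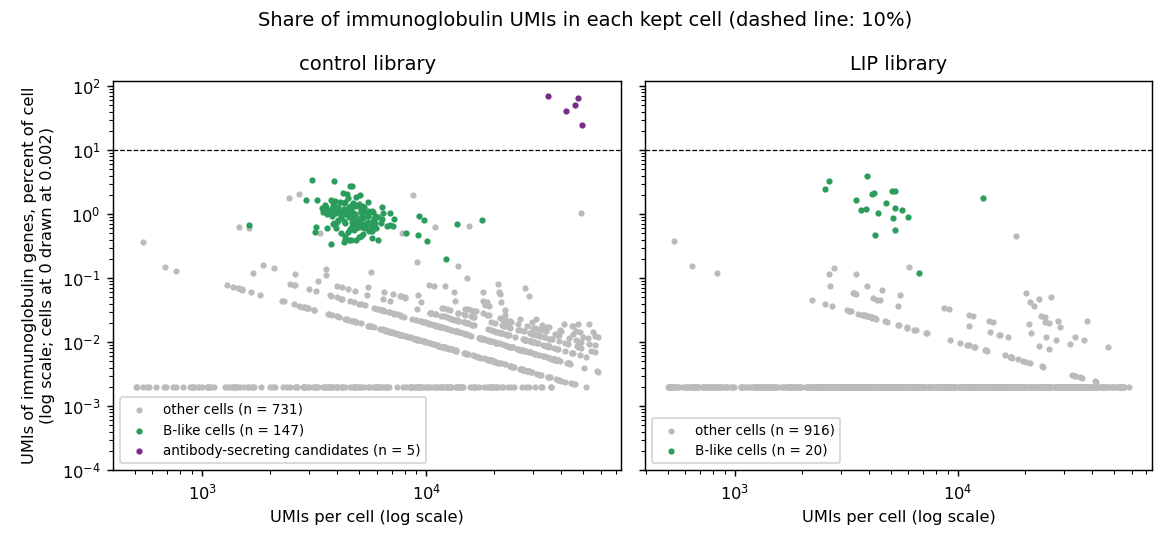
Share of UMIs from immunoglobulin genes (percent, log scale) against UMIs per cell (log scale) for every kept cell of each library, with cells at 0 drawn at 0.002. The 5 candidates lie above the dashed line at 10%, and no LIP cell lies above 3.87%.

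All 5 candidates carried switched IgG with kappa light chains. Cell 1 held 34733 UMIs, of which 15922 were *Igkc*, 8078 *Ighg2b* and 187 *Ighg2c*. Cell 2 held 22623 *Igkc* and 7627 *Ighg2c* UMIs among 47595. Cell 3 held 12506 *Igkc*, 9518 *Ighg1* and 34 *Ighg2b* UMIs among 45912. The first 3 cells thus carried 3 different IgG subclasses. Cell 4 held 9463 *Igkc*, 7328 *Ighg2b* and 83 *Igha* UMIs among 41882. Cell 5 held 9006 *Igkc*, 2954 *Ighg2b* and 3 *Igha* UMIs among 49660. The main subclass took at least 97.7% of each cell's heavy chain UMIs. *Ighm* was at 0 in all 5 cells and *Ighd* at 1 UMI in cell 4 and 0 in the others. *Vpreb3*, the precursor gene, had at most 4 UMIs per cell. The 83 *Igha* UMIs of cell 4 were most of the 104 in all kept control cells.

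*Jchain*, the polymer-joining chain, was high in every candidate, with 851, 1806, 1384, 741 and 270 UMIs in cells 1 to 5. *Mzb1* had 92, 160, 567, 220 and 204 UMIs in the same order. *Xbp1* was the lowest of the 3 secretory genes, with 10, 66, 71, 27 and 73 UMIs. Among UMIs outside immunoglobulin genes, *Jchain* was 1190-fold above control B-like cells (interval 823 to 1793), *Mzb1* was 44.8-fold above (38.3 to 52.6) and *Xbp1* 45.3-fold (31.8 to 66.1). Of 4740 genes with at least 20 UMIs in this comparison, 19% were at least 2-fold higher in the candidates, and all 3 secretory members were among them.

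**Figure D2:**
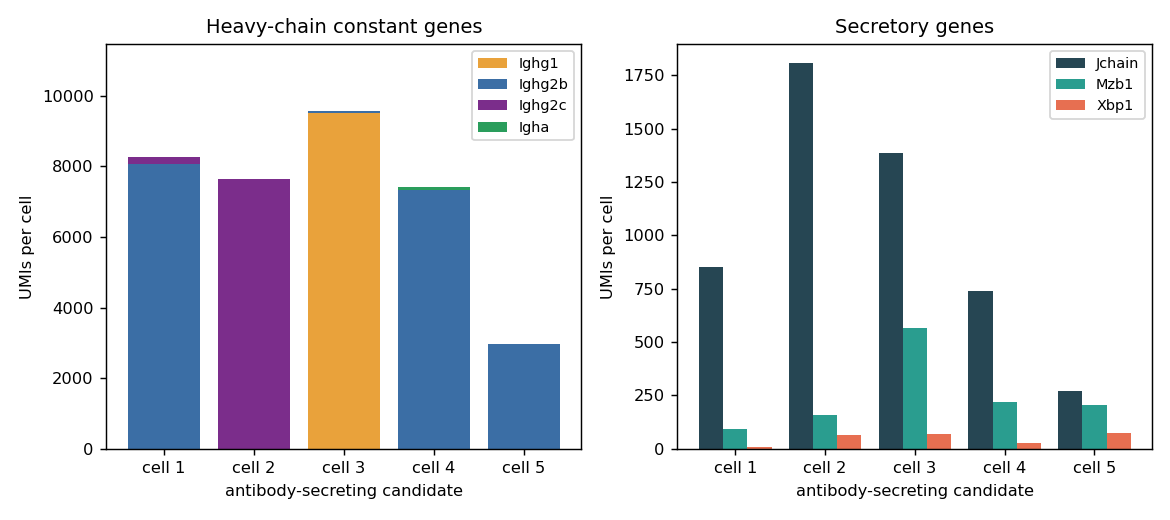
UMIs of heavy chain constant genes (left, stacked bars) and of 3 secretory genes (right) in each of the 5 antibody-secreting candidates of the control library. Each cell is dominated by 1 IgG subclass, and *Jchain* is the highest secretory gene in all 5.

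Other genes of the secretory program moved with the members. Of 20 endoplasmic reticulum and secretion genes, 19 had enough UMIs and 18 were at least 2-fold higher in the candidates than in control B-like cells, with a median log2 ratio of 4.21 against -0.14 over all genes of that depth. *Hsp90b1*, a chaperone, had 965 UMIs in the 5 cells and 235 in the 147 B-like cells, and *Fkbp11*, a secretory-pathway isomerase, had 114 and 0. *Atf4* was the gene of the list that did not pass, at 55 and 318 UMIs. Of 12 plasma cell fate genes, 9 could be compared and 6 were at least 2-fold higher. *Cxcr4* of this list was lower in the candidates, at a log2 ratio of -1.33. *Irf4* (log2 ratio 0.63, interval -0.29 to 1.46) and *Pou2af1* (0.39, -0.33 to 1.04) did not pass 2-fold. *Irf4* had 15 UMIs in the candidates and 64 in control B-like cells. *Prdm1*, a transcription factor of plasma cell fate, had 15 UMIs in 4 of the cells and 1 UMI in B-like cells. That was too few for it to be among the 9 compared. *Sdc1* (CD138) had 3 to 11 UMIs per cell. Per 1000000 UMIs, *Sdc1* was at 155 in the candidates, against 181 in control cells outside them and B-like cells. LIP cells outside B-like cells held 149. Per 1000000 UMIs outside immunoglobulin genes, *Sdc1* was at 303 in the candidates and 9.47 in control B-like cells. It was thus not confined to the candidates. *Tnfrsf17* (BCMA) was at 0 in all 5 candidates, but it had only 1 UMI in all other kept cells of both libraries, so its absence is not informative. None of the 17 B identity genes was 2-fold higher, and their median log2 ratio was -2.56. *Ms4a1* (CD20) had 4 UMIs in the candidates against 592 in control B-like cells, and *Pax5*, the B cell identity factor, had 0 against 186.

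Variable segments differed between most candidates. Cells 1 and 2 both had *Ighv1-62-2* as the leading heavy segment, with 13 and 10 UMIs, and *Igkv6-15* as the leading kappa segment, with 91 and 155, although their IgG subclass differed. Cell 3 was led by *Ighv4-1* (200 UMIs) and *Igkv10-96* (78), cell 4 by *Ighv1-26* (41) and *Igkv6-14* (33), and cell 5 by *Ighv1-69* (26) and *Igkv4-57* (29). Each kappa cell also held *Iglv1* UMIs, from 32 in cell 4 to 370 in cell 2, and kappa still made up 96.0% to 99.6% of the light chain constant UMIs. Variable segments are a multigene family, and whether reads were split between close copies was not tested, so these assignments are uncertain.

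The candidates did not form a cluster of their own. Immunoglobulin genes and the members, *Jchain*, *Mzb1* and *Xbp1* among them, had been kept out of the variable features. The clustering thus could not use the genes by which the candidates were chosen. Whether the candidates would form a separate cluster with these genes was not tested. Cells 1 to 3 lay in a cluster led by *Slpi* and *Gnb1*, and cell 4 in 1 led by *U90926* and *BC037156*. Cell 5 lay in 1 led by the proliferation genes *Hist1h2ap* and *Top2a*, and none was B-like. Leading genes were computed with the candidates included. *Slpi* had 61, 143 and 1522 UMIs in cells 1 to 3. The other cells of their cluster held 132 *Slpi* UMIs in 48 LIP cells and 1 in 25 control cells, at median depths of 791 and 1621 UMIs. Cell 5 held 36 *Top2a* and 26 *Mki67* UMIs, against at most 6 and 4 in the others. It also held 38 UMIs of macrophage markers against at most 3 in the other candidates, and the part of these in its values was not tested. T cell markers reached 13 UMIs in cell 4 and epithelial markers 18 in cell 5. The 5 cells held 34733 to 49660 UMIs, above the control median of 10845, and Scrublet marked none of them as a doublet.

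B-like cells of both libraries were unswitched. With at least 2 heavy chain UMIs per cell, 144 of 147 control cells (98.0%, interval 94.2 to 99.6%) and 20 of 20 LIP cells (interval 83.2 to 100%) were called IgM/IgD. The remaining control cells were 2 called IgG2b and 1 mixed. A LIP cell of 6695 UMIs was called on 8 *Ighm* UMIs alone, with no *Ighd*, *Igkc* or lambda constant UMI. *Cd79a* was found in 19 of the 20 LIP cells. Whether the cell without a light chain is a B cell was not tested. Among control cells 114 were kappa, 7 lambda and 26 mixed, and among LIP cells with enough UMIs 12 were kappa, 4 lambda and 3 mixed. The lambda share was 4.76% (1.94 to 9.57%) in the control library and 21.1% (6.05 to 45.6%) in the LIP library. These intervals overlap, which does not show that the shares are alike. All 20 LIP cells lay in a cluster, described below, that held only 7 control cells, of which 1 was lambda.

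Among members with at least 20 UMIs in B-like cells, the 2 libraries differed most in *Vpreb3* and *Ighm*. Per cell, *Ighm* had 0 to 54 UMIs in control cells (median 7) and 3 to 42 in LIP cells (median 19), *Igkc* 0 to 110 (median 26) and 0 to 145 (median 29.5), and *Vpreb3* 0 to 37 (median 1) and 0 to 44 (median 3.5), so that the cells of both libraries overlapped for each. Summed over cells, *Igkc* was at 5679 CPM (copies per 1000000 UMIs of the class, interval 5509 to 5852) in control cells and 7907 (7363 to 8480) in LIP cells. *Ighm* was at 1650 CPM (1559 to 1745) and 3807 (3432 to 4211). *Vpreb3*, which acts in precursor receptor assembly, was at 484 CPM (435 to 536) and 1929 (1665 to 2222). These 3 members were higher in the LIP library, and so were *Iglc2*, *Iglc3* and *Mzb1*. *Ighd* was at 752 and 616 CPM, and *Iglc2* at 563 (510 to 619) and 919 (740 to 1128). *Iglc3* was at 352 (311 to 398) and 616 (471 to 791), and *Mzb1* at 245 (211 to 283) and 444 (323 to 596). *Xbp1* was near 50 CPM in both, with 36 UMIs in control and 5 in LIP cells. *Igha* had 3 and 1 UMIs. *Jchain* had 28 UMIs in 11 of 147 control cells and 0 in the 20 LIP cells, which at the floor of 3 counts allows up to 30.3 CPM, close to the 37.5 CPM of control cells.

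*Vpreb3* was 3.99-fold higher in LIP than in control B-like cells (interval 3.33 to 4.77). As log2 ratios of LIP over control, *Ighm* stood at 1.21 (1.04 to 1.37), *Mzb1* at 0.86 (0.35 to 1.34), *Iglc3* at 0.81 (0.38 to 1.21), *Iglc2* at 0.71 (0.36 to 1.04), *Igkc* at 0.48 (0.37 to 0.59), *Xbp1* at 0.07 (-1.64 to 1.42) and *Ighd* at -0.29 (-0.69 to 0.10). Of the 9 members with at least 20 UMIs, 2 were past 2-fold higher, *Vpreb3* and *Ighm*, and 0 past 2-fold lower. Over all 4585 genes of that depth 9.05% were past 2-fold higher and 12.8% lower. With a 5% limit on mitochondrial UMIs, which left 8 LIP and 60 control B-like cells, *Ighm* came to 0.91 and was no longer past 2-fold, *Iglc3* came to 1.39 (0.83 to 1.93) and passed 2-fold, and *Ighd* turned to 0.40. With B-like cells taken as those with 2 of 4 B cell marker genes, *Mzb1* just reached 2-fold (log2 interval 0.54 to 1.44).

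These ratios compare different clusters. Of the control B-like cells 140 lay in a cluster led by *Cd79a* and *Ms4a1*, which held no LIP cell, and 7 lay with all 20 LIP cells in a cluster led by *Cd79b* and *Tifa*. Within the shared cluster, a comparison chosen after the clusters had been seen, the order turned for both *Vpreb3* and *Ighm*. *Vpreb3* was at 5332 CPM in the 7 control cells (14 to 37 UMIs per cell, median 23) and 1929 CPM in the LIP cells (0 to 44, median 3.5), a log2 ratio of -1.47 (-1.78 to -1.15). *Ighm* was at 5865 and 3807 CPM there, a log2 ratio of -0.62 (-0.89 to -0.36). *Igkc* was at 8165 and 7907 CPM (log2 ratio -0.05, interval -0.26 to 0.17). *Mzb1* (log2 ratio -0.85) and *Ighd* (1.40) also turned, and *Iglc3* stood at -1.92, with 63 of the 70 control UMIs in 1 cell. The single cells of both libraries overlapped for *Vpreb3*, *Ighm* and *Igkc*. In the cluster found in the control library alone, *Vpreb3* was at 281 CPM with a median of 1 UMI per cell.

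**Figure D3:**
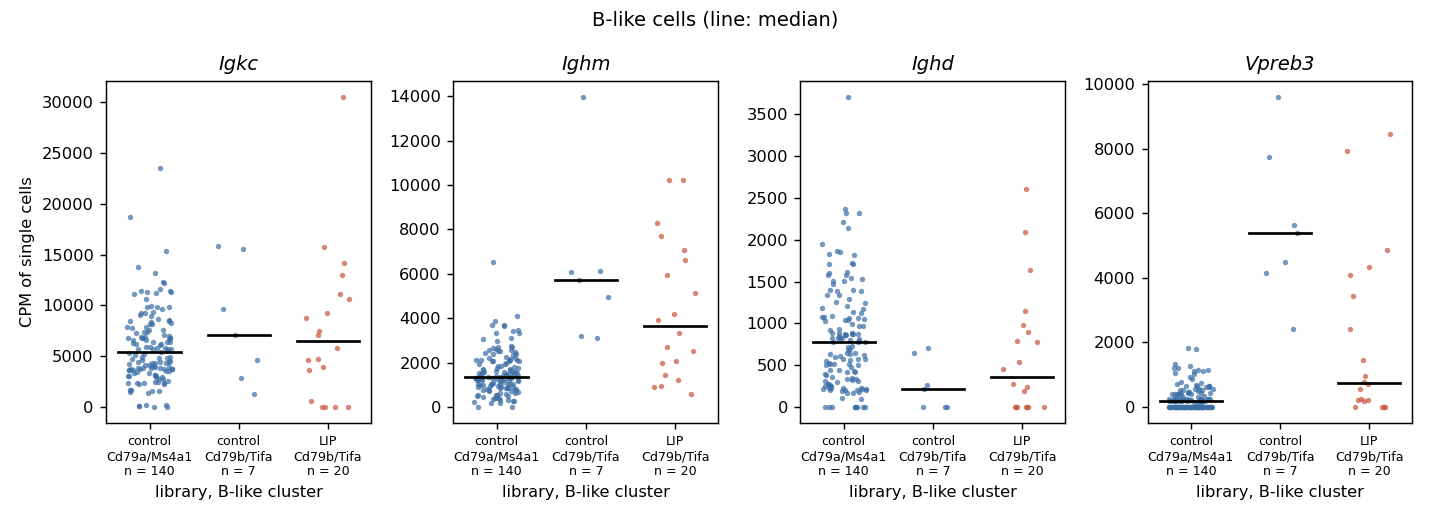
CPM of 4 members in single B-like cells, by library and cluster, with the median as a line. *Vpreb3* and *Ighm* are highest in the 7 control cells of the cluster led by *Cd79b* and *Tifa*, and the 20 LIP cells spread over the range of both control groups.

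Precursor genes lay in the shared cluster. *Rag1* was among its 10 leading genes and was not kept out of the clustering, so its place there is a description. *Rag1*, which cuts the receptor genes for rearrangement, had 13 UMIs in 5 of its 7 control cells and 24 UMIs in 7 of its 20 LIP cells, against 0 in the 140 cells of the other cluster. *Vpreb3* was detected in 5 of 5 and 6 of 7 of these *Rag1* cells, and in 7 of 7 and 16 of 20 of all cells of the cluster. The surrogate light chain genes were rare, with *Vpreb1* at 9 and 6 UMIs and *Igll1* at 12 and 5 UMIs in control and LIP B-like cells, the control UMIs of each gene lying in 1 cell. *Ighd* per 100 *Ighm* UMIs was 52.5 in the cluster led by *Cd79a* and *Ms4a1*, 3.98 in the 7 control cells and 16.2 in the LIP cells. The LIP cells were mixed, since 13 of 20 had both *Ighm* and *Ighd*, and the cell with the most *Vpreb3* (44 UMIs) had no *Ighd*.

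One B-like control cell carried some signs of secretion, at a lower level than the candidates, but little *Xbp1*. It held 17654 UMIs with 18 *Jchain*, 16 *Mzb1*, 68 *Iglc1* and 46 *Ighg2b* UMIs, no *Ighm* and no *Ighd*. *Xbp1* had 1 UMI in this cell and *Vpreb3* had 4. Its *Jchain* count was most of the 28 of all control B-like cells. The other B-like cell called IgG2b held 12193 UMIs, with 17 *Mzb1*, 2 *Xbp1* and 1 *Jchain* UMIs.

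B cell genes also occurred outside the B-like clusters, where 8 control cells and 1 LIP cell held at least 2 of 4 B cell marker genes. The LIP cell lay in the cluster led by *Hist1h2ap* and *Top2a* and held 37 *Igkc*, 44 *Ighm* and 33 *Vpreb3* UMIs. It carried most of the 48 *Igkc* UMIs found outside LIP B-like cells. In the same cluster, a control cell of 48925 UMIs held 278 *Igkc*, 175 *Ighm* and 48 *Jchain* UMIs. Another of 8700 UMIs held 150 *Igkc*, 10 *Ighg2b*, 2 *Ighg1*, 2 *Ighm*, 9 *Mzb1* and 4 *Jchain* UMIs. A control cell of 10928 UMIs there held 53 *Igkc*, 9 *Ighg1*, 9 *Mzb1* and 8 *Jchain* UMIs and no *Ighm*. A control cell of 2694 UMIs held 51 *Igkc*, 5 *Ighg1* and 2 *Jchain* UMIs, also without *Ighm*.

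Outside B-like cells and candidates, *Igkc* UMIs occurred in every control class. A UMI of *Igkc* was found in 431 of 731 such control cells (59.0%, interval 55.3 to 62.6%) and 12 of 916 LIP cells (1.31%, 0.679 to 2.28%), at median depths of 13559 and 5826 UMIs. After thinning each cell to 1000 UMIs, which left out 21 control and 68 LIP cells, the expected shares were 8.78% and 0.19%. All 10 named classes of the control library held *Igkc*, from 22.2 CPM in erythroid-like to 178 CPM in mural-like cells, and 6 of 10 did so in the LIP library, at no more than 3.64 CPM. The mural-like value rests on 1 cell with 71 *Igkc* UMIs and B cell genes. Epithelial-like cells, which should lack the gene, had it in 126 of 176 control cells (71.6%) and 1 of 70 LIP cells at median depths of 27595 and 28604 UMIs. Shares of control cells at or below that of epithelial-like cells are not read as expression. That bar rests on the deepest named class. By level, epithelial-like control cells held 54.4 CPM, below every other named control class but erythroid-like. Neutrophil-like cells held 122 CPM and Schwann-like cells 138 CPM, at median depths of only 6494 and 3989 UMIs. Counted per cell the order was the reverse. Control epithelial-like cells held 272 *Igkc* UMIs in 176 cells, neutrophil-like 57 in 53 and Schwann-like 24 in 37. Of the 57 *Igkc* UMIs of control neutrophil-like cells, 20 lay in 1 cell with B cell genes. Whether these higher CPM levels are expression or follow from the lower depth was not tested.

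The ratio of IgG to *Igkc* outside B-like cells depended on a few cells with B cell genes. Per 100 *Igkc* UMIs the candidates held 51.4 IgG UMIs (*Ighg1*, *Ighg2b* and *Ighg2c* together), epithelial-like cells 51.1 (interval of the IgG count alone, 43.0 to 60.3) and B-like cells 2.24. The 731 control cells outside B-like cells and candidates held 29.1 (26.4 to 32.0) in all, and 47.5 (42.9 to 52.4) without the 8 cells that held B cell genes. Of the 9 named classes with at least 20 *Igkc* UMIs, 7 had an interval that held the candidates' value, and macrophage-like (29.8) and mural-like cells (22.9) lay below it. The cluster led by *Hist1h2ap* and *Top2a* also lay below, at 12.2. In mural-like cells 71 of the 105 *Igkc* UMIs lay in 1 cell with B cell genes, which held no *Ighg1* or *Ighg2b*. In the cluster led by *Hist1h2ap* and *Top2a*, 278 of 665 lay in 1 such cell, also without *Ighg1* or *Ighg2b*. The 161 control barcodes with fewer than 200 genes, at a median of 3545 UMIs, held 46 *Igkc* UMIs, with 54.3 IgG UMIs per 100. The 73 such barcodes of the LIP library, at a median of 6019 UMIs, held 0. Whether these barcodes are free of cells was not tested. *Jchain* per 100 *Igkc* was 7.27 in the candidates, 5.33 in the other cells without B cell genes and 0.661 in B-like cells. Whether RNA freed from the secreting cells accounts for these UMIs was not tested.

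**Figure D4:**
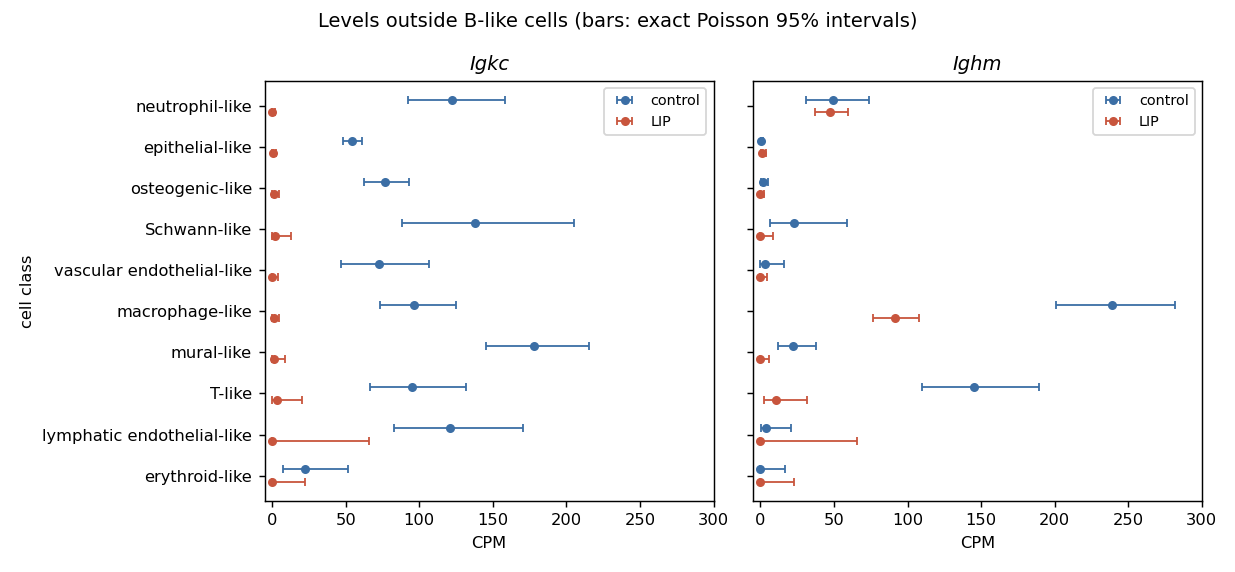
CPM of *Igkc* (left) and *Ighm* (right) in the named classes other than B-like cells, with exact Poisson 95% intervals, for the control and LIP libraries. *Igkc* is above 20 CPM in every control class and under 4 CPM in every LIP class, while *Ighm* stands out in macrophage-like cells of both libraries.

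*Ighm* did not follow *Igkc*. In LIP macrophage-like cells it had 138 UMIs in 33 of 78 cells (91.3 CPM, interval 76.7 to 108), with 2 *Igkc* UMIs in the class, and in control macrophage-like cells 141 UMIs in 30 of 40 cells (239 CPM, 201 to 282). Of the LIP macrophage-like UMIs 92.0% lay in cells without any light chain UMI, against 19.1% in control macrophage-like and 49.1% in control T-like cells. These shares cannot be compared between the libraries. Outside B-like cells and candidates, 59.0% of control but 1.31% of LIP cells held an *Igkc* UMI. LIP neutrophil-like cells had 77 *Ighm* UMIs in 51 of 325 cells and 0 *Igkc* UMIs. Control T-like cells had 55 *Ighm* UMIs in 24 of 51 cells. Osteogenic-like, Schwann-like, mural-like and both endothelial-like classes of the LIP library had 0. *Cd79a* was at 0 in all 21 LIP and 16 control macrophage-like cells with at least 3 *Ighm* UMIs. *Siglech*, a marker of plasmacytoid dendritic cells looked up after these values were seen, was found in 5 and 7 of them. At the same *Ighm* threshold it was found in 0 of 6 LIP neutrophil-like, 0 of 7 control T-like and 1 of 20 LIP B-like cells. Its share in macrophage-like cells with fewer *Ighm* UMIs was not counted. *Igha* outside B-like cells and candidates also lay mostly in macrophage-like cells, with 14 of 15 control and 5 of 6 LIP UMIs.

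*Xbp1* was found in 9 of the 10 named classes in each library. Cells of a cluster led by *Tff2* and *Muc5b*, both mucous secretory genes, had the highest level outside the candidates, at 549 CPM (492 to 609) in 16 control and 515 CPM (442 to 598) in 11 LIP cells. Vascular endothelial-like cells had 241 and 222 CPM and osteogenic-like cells 235 and 207 CPM, and the intervals of the libraries overlapped in each. B-like cells were among the lowest groups, at 48.2 and 50.5 CPM. The *Tff2* and *Muc5b* cluster also held nearly all *Pigr*, which carries polymeric antibody across epithelium, at 2058 CPM in control and 2191 CPM in LIP cells, against at most 6 UMIs in any other group.

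**Figure D5:**
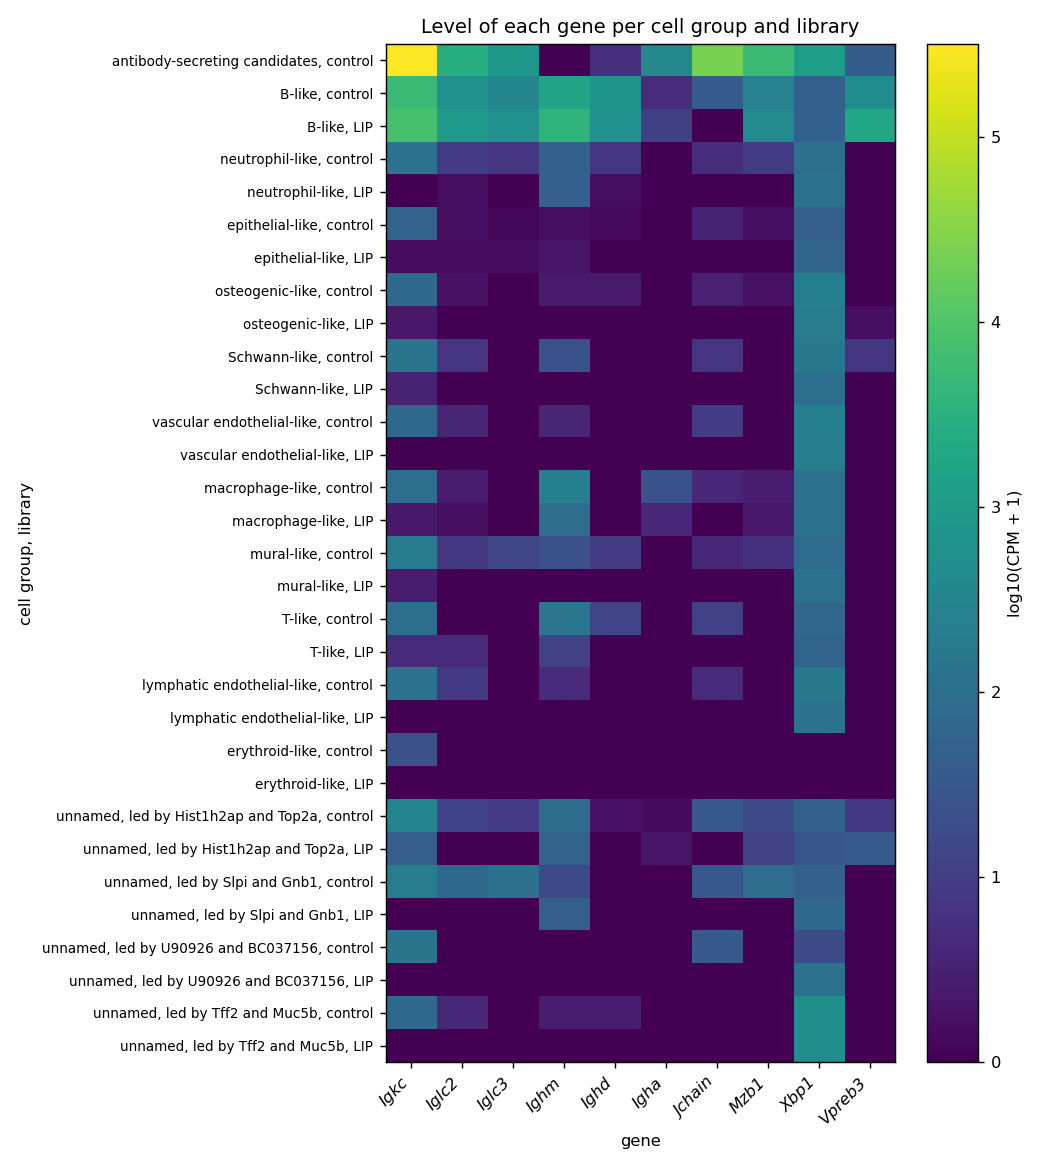
Level of each member, as log10(CPM + 1), in every cell group and library. *Igkc* is seen in all control groups and is at 0 in several LIP groups, *Jchain* is at 0 in every LIP group, and *Xbp1* is spread over nearly all groups.

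Across the 31 sums of a group and library with at least 5 cells, the genes most like a member were named by Pearson's r of log2(CPM + 10), as a description over points that share libraries. *Jchain* was most like *Ighg1* (0.98) and *Eaf2* (0.97), *Ighd* most like *Cxcr5* (0.98), and *Vpreb3* most like *Fcrla* (0.95). *Igkc* was most like *Iglc2* (0.90), *Iglc2* like *Iglc3* (0.99), *Iglc3* like *Iglc1* (0.99), *Ighm* like *Rubcnl* (0.89), *Igha* like *Iglv1* (0.95) and *Mzb1* like *Iglc2* (0.97). The matches of *Jchain* and *Igha* lean on 1 point, the candidates. These held 97.4% of the *Jchain* and 82.7% of the *Igha* UMIs of kept control cells, and their 9518 *Ighg1* UMIs all lay in cell 3. The candidates also held 92.4% of the *Igkc* and 83.5% of the *Mzb1* UMIs of these cells. How far the matches of *Igkc* and *Mzb1* lean on that point was not tested. *Xbp1* was most like *H13* (0.91) and *Sel1l* (0.89), both of the endoplasmic reticulum, rather than any other member.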

How the data were processed

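The authors prepared 10x Genomics single-cell libraries, aligned them to mm10 with Cell Ranger (version 3.1.0 per the file headers) and deposited, for each library, a matrix of UMI counts that had not been normalized. The steps below start from those counts. Cells with under 200 or over 7500 genes, over 60000 UMIs or over 10% mitochondrial UMIs were left out. Clusters of both libraries together, after integration, came from Seurat 5.3.0 (R 4.3.3, 2000 variable features, 30 dimensions, resolution 0.1, each cluster split again at 0.2), with immunoglobulin genes and the 10 members kept out of the variable features. A cluster was named from 19 marker lists where 3 markers, 1 of them among its 10 leading genes, were found in at least 25% of its cells and over 2-fold above the rest. The requirement for a leading marker was added after the leading genes had been seen. Classes exclude the antibody-secreting candidates, which are given apart.

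Isotype needed 2 heavy chain UMIs with 66.7% in 1 class, and light chain 80% of 2 UMIs. Sums of 0 stood at a floor of 3 counts. Thinning is the expected share after drawing 1000 UMIs. All 10 members are named, with genes of 9 context lists by counts and at least 20 UMIs. The members and lists were chosen with earlier results of these data known. Scrublet (scanpy 1.11.5) marked 4 control and 1 LIP cells, which were kept. Computations used Python 3.11.15, numpy 2.4.6, scipy 1.17.1 and pandas 2.3.3, and were tested on simulated data. Gene positions and sequences are those of the GENCODE annotation of GRCm38, the assembly of mm10. Depth was 13407122 UMIs in kept control cells and 10560109 in kept LIP cells. One gene is not reported here.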

Additional observations from a re-analysis of the deposited data

Results flagged for a closer look

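One control barcode outside the kept cells carried an immunoglobulin signal. Immunoglobulin genes took 12.8% of its 932 UMIs, with 57 *Igkc*, 52 *Ighg2c*, 2 *Igha* and 1 *Ighg1* UMIs, and it was left out because 32.4% of its UMIs were mitochondrial. *Jchain* and *Mzb1* were at 0 in it, and it held 11 *Mki67* UMIs. No barcode left out of the LIP library, of 276, reached 10%.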

How the results depend on the processing

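Over 17 alternatives, 299 of 329 values moved by less than their counting interval and 30 moved further, and 69 of 70 log2 ratios kept their sign. With a 5% limit on mitochondrial UMIs, which left 8 LIP and 60 control B-like cells, *Ighm* in B-like cells came to 2635 CPM in the LIP and 1404 CPM in the control library (log2 ratio 0.91), the log2 ratio of *Ighd* to 0.40 and that of *Iglc3* to 1.39, *Vpreb3* in control cells to 413 CPM, and the share of *Igkc* UMIs outside B-like cells and candidates to 11.3% in the LIP and 1.44% in the control library. With B-like cells taken as those with 2 of 4 B cell genes, control *Igkc* came to 5227, *Ighm* to 1532 and *Vpreb3* to 403 CPM, the log2 ratio of *Vpreb3* to 2.33, and the *Igkc* share outside to 1.32% in the LIP and 1.10% in the control library. As a mean over cells, control *Igkc* came to 6029 CPM (log2 ratio 0.32), *Ighm* to 4353 CPM in LIP and 1779 CPM in control cells, and control *Vpreb3* to 548 CPM. The cause of these shifts was not tested. Candidates were counted under 6 alternatives. The control library held 5 in each of these except without any filter on cells, which gave 6, and the LIP library held 0 in all 6. Among genes of at least 50 UMIs, 15.6% were past 2-fold in either direction in B-like cells.

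No paired analysis was possible because each condition has 1 library. With 20 LIP B-like cells, a gene at 0 there is limited to 30.3 CPM by the floor of 3 counts.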
